A study of Mus musculus with 18 samples.

Results

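Quadriceps muscle of Cre control mice and of floxed control mice was compared at 17 months of age, with 3 libraries in each group, 6 of the 18 RNA sequencing libraries of the series. The groups were taken from the sample labels. In Cre control mice, with wild type Pofut1, the promoter of skeletal alpha actin drives Cre recombinase in muscle fibres. Floxed control mice carry 2 Pofut1 alleles flanked by loxP sites and no Cre. Pofut1 is therefore meant to be intact in both, and the groups differ in the transgene and in the floxed alleles at the same time. The same genotypes at 2 months (3 libraries each) and the knockout mice, which carry the transgene and the floxed alleles together (3 libraries at 17 and 3 at 2 months), are given beside them. All animals are labelled C57/Bl6; the labels say neither whether they were littermates nor which founder or line the transgene came from. Each replicate number belongs to 1 group only.

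Pofut1 encodes protein O-fucosyltransferase, which adds O-fucose to EGF-like repeats in the endoplasmic reticulum. Notch receptors are among its best known substrates, and Notch signalling keeps the muscle stem cells, called satellite cells, quiescent. Cre acts on loxP sites wherever it is expressed, so a mouse line with the transgene and no floxed gene is the usual control for what Cre, its insertion site and the DNA inherited along with it do on their own. A floxed line made in embryonic stem cells of another strain can keep a stretch of that strain's DNA around the targeted gene after backcrossing.

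The 6 libraries held 24901936 to 31440196 counts over 15224 genes. Between 14.5 and 22.2% of them fell on Ttn, which encodes titin. Fibre genes were high in each library, as the muscle label implies: Acta1, skeletal alpha actin, had 17000.4, 15709 and 14534 CPM (read counts scaled to library size with TMM factors) in Cre muscle and 15329, 16185 and 17912 CPM in floxed muscle. Spearman correlations were 0.979 to 0.985 within a group and 0.969 to 0.986 between the groups, so the ranges overlapped. The first principal component (38.2% of the variance) set Cre 34 at one end and floxed 46 at the other, and floxed 46 also had the most 18S-like ribosomal RNA, with 2871 CPM of Rn18s-rs5 against at most 626 CPM in the other 5. Xist, the RNA that silences an X chromosome, was at 1.18, 260.2 and 303 CPM in Cre 34, 35 and 99 and at 300.4, 326 and 1.45 CPM in floxed 5, 46 and 48. The Y-linked gene Ddx3y had 88.8, 1.4 and 0.882 CPM in Cre and 0.701, 0.689 and 247 CPM in floxed muscle, so each group held 1 library with low Xist and high Ddx3y. Nnt, a mitochondrial transhydrogenase with a deletion in some C57BL/6 substrains, had 58.8, 70.5 and 61.5 CPM in Cre muscle and 83.6, 72.9 and 21.2 CPM in floxed muscle. Among these 6 floxed 48 was the lowest, and low levels were also found in the 3 young knockouts (14.4 to 20.8 CPM) and old knockout 17 (18.9 CPM). Fewer cells of a type and less RNA per cell cannot be told apart in such bulk samples.

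Pofut1 (Entrez 140484; chromosome 2, 153241532 to 153271029 on GRCm38.p6) was measured first. It had 16.3, 15.8 and 18.3 CPM in Cre muscle and 12.7, 14.8 and 13.5 CPM in floxed muscle at 17 months. Each Cre library lay above each floxed one, but the difference did not pass the test (log2 0.30, SE 0.153, adjusted p = 0.512). At 2 months the mean was lower in Cre muscle, with 13.8, 16.2 and 19 CPM in Cre and 19.6, 17.8 and 17 CPM in floxed muscle, and the groups overlapped. Of the 6 knockout libraries, 5 had 9.30 to 10.6 CPM of Pofut1. The library labelled old knockout 40 had 16.3 CPM, a level that both control genotypes also reach, so its Pofut1 goes against its label.

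Of 15224 genes, 2 were called between Cre and floxed muscle at 17 months (0.0131% of genes; edgeR quasi-likelihood test, adjusted p under 0.05), and both were lower in Cre muscle. The first was LOC102640133, a long noncoding RNA named Gm19378 in RefSeq (chromosome 15, 89767615 to 89769242). It had 2.4, 2.12 and 2.69 CPM in Cre muscle and 14.8, 15.8 and 17.7 CPM in floxed muscle (log2 -2.75, SE 0.147, adjusted p = 4.26e-08). The 2 groups lay far apart, and so they did at 2 months (log2 -2.57), when 1.71, 2.33 and 2.35 CPM were found in Cre and 11.9, 13.2 and 13 CPM in floxed muscle. The second was Sox12, a transcription factor of the SoxC family (chromosome 2, 152393611 to 152398046). It had 0.236, 0.156 and 0.115 CPM in Cre muscle, which are 6, 5 and 3 counts, and 0.779, 0.996 and 0.637 CPM in floxed muscle, or 20, 26 and 18 counts (log2 -2.23, SE 0.334, adjusted p = 0.043). The groups did not overlap at either age. The call of Sox12 ended when Cre 34, 35 or 99 or floxed 46 or 48 was left out (adjusted p = 0.0698 to 0.384). It also ended with only the 12 control libraries (0.219), with only these 6 libraries (0.351), with Xist as a covariate (0.0685) and without the library labelled old knockout 40 (0.0719). LOC102640133 was called in each of these fits.

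At an unadjusted p under 0.01 there were 350 genes (2.3%) at 17 months, of which 139 were higher and 211 lower in Cre muscle. The same count at 2 months was 124 (0.815%), and 2 genes (0.0131%) were called there, LOC102640133 and Cd28. When the Cre minus floxed difference was averaged over both ages, 20 genes (0.131%) were called, 11 higher and 9 lower in Cre muscle. With only the 12 control libraries in the fit, 14 of the 20 were called, and Pigu (0.0547), Gm16793 (0.0602), Uqcc1 (0.0617), Ddias (0.0855), Eif6 (0.0907) and Kcnab1 (0.0911) were not (edgeR adjusted p in brackets). Without the library labelled old knockout 40 all 20 were called, among 28 genes. Among the 20 genes, each of the 6 Cre libraries lay above each of the 6 floxed libraries for 10 genes and below for 6, and the groups overlapped over the 12 libraries for Kcnab1, Ctnna3, Ddias and Gm16439. The 20 genes were selected on the difference between these same libraries, so their separation is no further support for the calls. The share of all genes so separated is not given here. The difference between the ages was called for 0 genes with edgeR, with 906 (5.95%) at an unadjusted p under 0.05. With DESeq2 1 gene was called for it, Hspb6, a small heat shock protein of muscle, which was singled out after its values were seen. Hspb6 had 93.2, 130.5 and 111 CPM in Cre and 145, 208 and 158 CPM in floxed muscle at 17 months, and 120.2, 92.4 and 95 CPM in Cre and 80.4, 69.1 and 62 CPM in floxed muscle at 2 months.

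**Figure D1:**
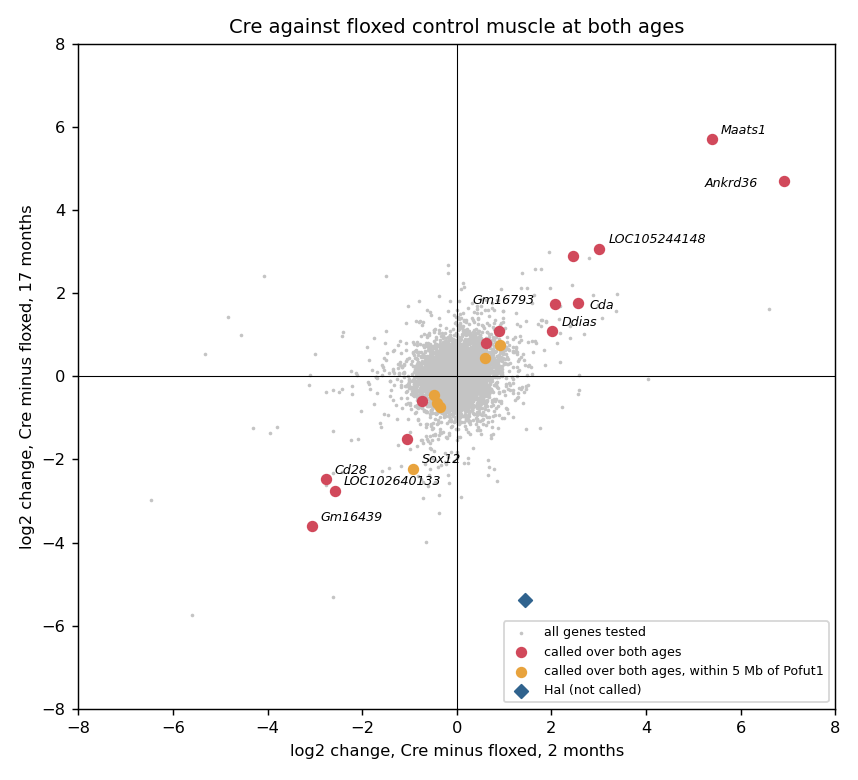
Log2 change of each gene, Cre minus floxed, at 17 months (vertical) against 2 months (horizontal), from 6 separate libraries at each age. The 20 genes called over both ages are coloured and lie along the diagonal, which their selection on the mean of both changes favours. Hal, at -5.37 at 17 months, had a change of 1.45 at 2 months.

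The genes called over both ages have a wide range of known functions. In this paragraph the log2 changes and adjusted p are those over both ages, and levels are those of 17 months where no age is named. Lower in Cre muscle was Cd28, a costimulatory receptor of T cells, with 2, 4 and 2 counts in Cre and 17, 15 and 12 counts in floxed muscle at 17 months (log2 -2.63, SE 0.315, adjusted p = 0.00254 over both ages). Cd3g, a part of the T cell receptor complex, had 0 to 0.312 CPM in Cre and 0.156 to 0.651 CPM in floxed muscle at 17 months. Gm16439, annotated as a pseudogene, had 0.668, 0.437 and 0.614 CPM in Cre and 4.2, 11.3 and 5.41 CPM in floxed muscle at 17 months. At 2 months it had 0.42, 0.343 and 0.448 CPM in Cre and 5.88, 3.92 and 0.447 CPM in floxed muscle, so young floxed 92 had a level like that of Cre muscle. Its RefSeq span overlaps that of another gene model, Gm5624, and reads may be split between copies. Kcnab1, a beta subunit of voltage-gated potassium channels, was at 8.33, 4.46 and 5.99 CPM in Cre and 14.9, 13.7 and 24.6 CPM in floxed muscle (log2 -1.28, SE 0.22, adjusted p = 0.0279). Ctnna3, an alpha catenin of heart and muscle, was at 31.6, 23.7 and 23.6 CPM in Cre and 36.7, 47.2 and 35.8 CPM in floxed muscle (log2 -0.67, SE 0.109, adjusted p = 0.0209). For both genes the groups were apart at each age, and the mean of each genotype was higher at 17 than at 2 months. Other gene models lie within the spans of Kcnab1, Ctnna3, Ankrd36 and Ahcy, and without strand their reads cannot be told apart.

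Several of the genes that were higher in Cre muscle were near absent from floxed muscle. Maats1, a protein of motile cilia, had 25, 25 and 24 counts in Cre and 0, 1 and 0 counts in floxed muscle at 17 months, and 51, 46 and 45 counts in Cre and 2, 1 and 0 counts in floxed muscle at 2 months (adjusted p = 0.00662 over both ages). Ankrd36, an ankyrin repeat gene, had 7, 9 and 20 counts in Cre and 0, 1 and 0 counts in floxed muscle at 17 months (adjusted p = 0.0279 over both ages). For these 2 genes the floxed libraries were at 0 to 2 counts, and no fold is given. LOC105244148, annotated as a pseudogene, had 12, 16 and 27 counts in Cre and 2, 4 and 0 counts in floxed muscle. Cda, cytidine deaminase, had 0.707, 0.655 and 0.806 CPM in Cre and 0.117, 0.115 and 0.389 CPM in floxed muscle. At 17 months no library held more than 27 counts of Maats1, Ankrd36, LOC105244148 or Cda.

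Of the better expressed genes, Tspan13, a tetraspanin, had 26.1, 30.3 and 33.2 CPM in Cre and 21.5, 15.4 and 14.9 CPM in floxed muscle (log2 0.71, SE 0.1, adjusted p = 0.00662 over both ages). Mfhas1, a leucine-rich repeat signalling protein, had 7.27, 6.21 and 7.33 CPM in Cre and 3.35, 2.26 and 4.07 CPM in floxed muscle at 17 months (log2 0.997, SE 0.166, adjusted p = 0.0239 over both ages). Gm16793, a long noncoding RNA whose span overlaps that of Mfhas1, was also called over both ages (log2 1.91, SE 0.347, adjusted p = 0.04). The strand used in counting is not given in the sources used here, so reads of the 2 cannot be told apart. Ddias, a gene that limits cell death after DNA damage, was higher over both ages (log2 1.55, SE 0.271, adjusted p = 0.0306). It had 0.196, 0.312 and 0.46 CPM in Cre and 0.195, 0.0766 and 0.177 CPM in floxed muscle at 17 months, where the lowest Cre library was level with the highest floxed one. It had 0.804, 1.06 and 0.896 CPM in Cre and 0.251, 0.252 and 0.172 CPM in floxed muscle at 2 months.

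**Figure D2:**
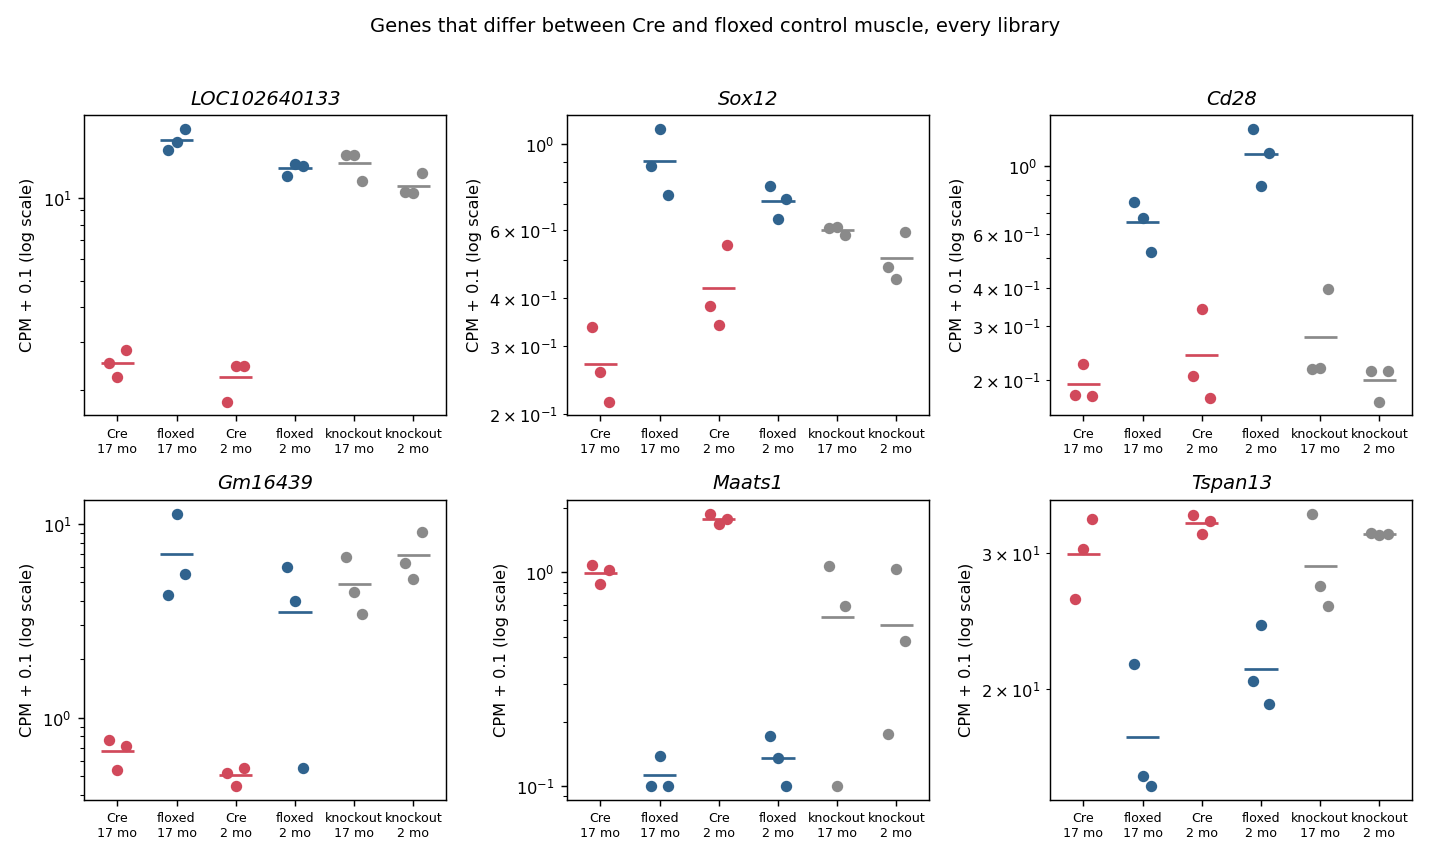
CPM + 0.1 on a log scale for 6 of the genes called over both ages, with 1 point for each library and a bar for the group mean. LOC102640133 is at 1.71 to 2.69 CPM in the 6 Cre libraries and at 11.9 to 17.7 CPM in the 6 floxed ones, and the 6 knockout libraries lie at 10.3 to 14.3 CPM.

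Of the 20 genes called over both ages, 6 lie within 5 Mb of Pofut1 on chromosome 2, a window set after the positions were seen: Sox12, Ahcy, Pigu, Eif6, Uqcc1 and Phf20. The window held 122 of the 15224 genes, and 14 of them (11.5%) had an unadjusted p under 0.01 at 17 months, against 298 of 13562 genes (2.2%) on other chromosomes. At 2 months these shares were 8 of 122 (6.56%) and 100 of 13562 (0.737%). Farther out on the chromosome the share at 17 months was 1 of 42 genes (2.38%) at 5 to 10 Mb, 10 of 297 (3.37%) at 10 to 30 Mb and 15 of 703 (2.13%) beyond. Of the 14 genes inside 5 Mb, 7 were higher and 7 lower in Cre muscle, 12 had the same sign at 2 months, and 7 of these 12 had an unadjusted p under 0.05 there. On other chromosomes 171 of the 298 genes had the same sign at 2 months, and 20 of these had an unadjusted p under 0.05. The animals of the 2 ages are separate, but the p-values of both ages come from the same fit, with a shared estimate of each gene's spread. The counts at the 2 ages are therefore not independent.

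**Figure D3:**
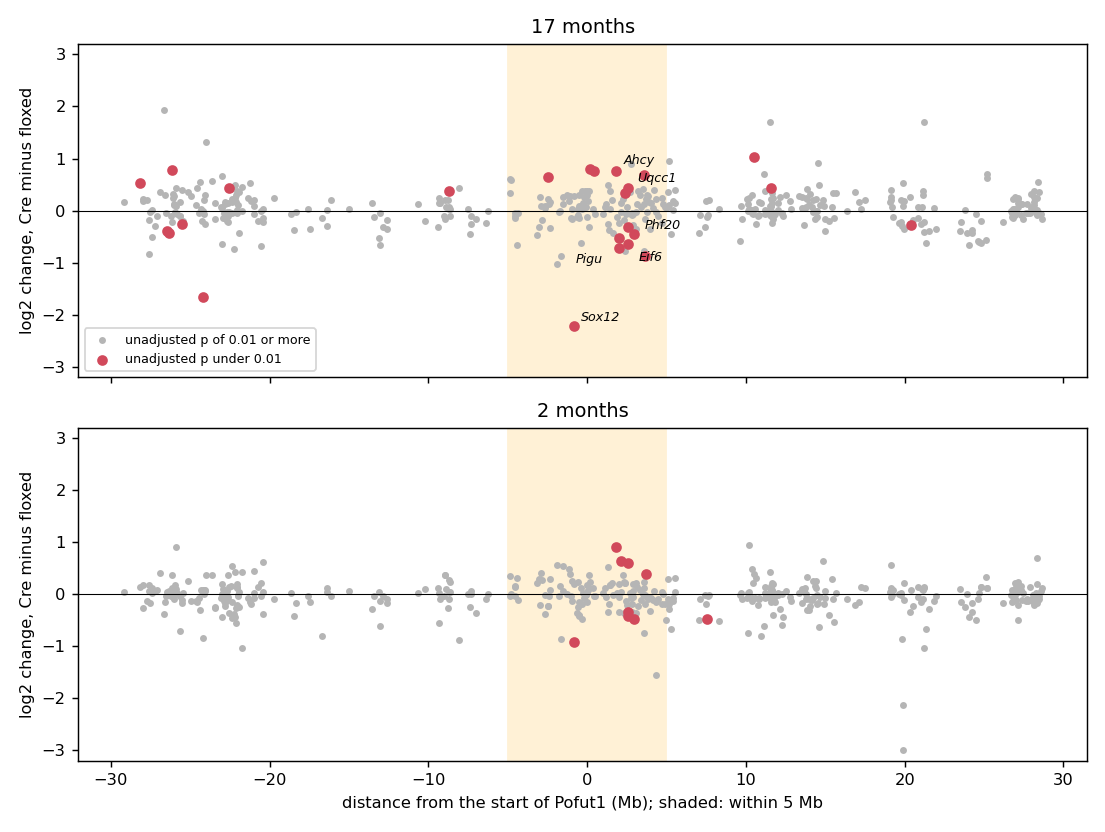
Log2 change, Cre minus floxed, of the genes within 30 Mb of the start of Pofut1, against their distance from it, at 17 months (top) and 2 months (bottom). Genes with an unadjusted p under 0.01 gather inside 5 Mb (shaded), 14 of 122 at 17 months and 8 of 122 at 2 months, on both sides of 0.

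The called genes near Pofut1 changed in both directions. Ahcy, which hydrolyses S-adenosylhomocysteine, lies 1.82 Mb from Pofut1 and had 14.1, 11.5 and 10.7 CPM in Cre and 5.96, 8.31 and 7.29 CPM in floxed muscle (log2 0.83, SE 0.112, adjusted p = 0.00662 over both ages). Uqcc1, an assembly factor of respiratory complex III, had 113, 114 and 99.2 CPM in Cre and 76, 81.8 and 81.9 CPM in floxed muscle (log2 0.52, SE 0.0933, adjusted p = 0.04). Lower in Cre muscle were Phf20, a chromatin reader, with 44.2, 41.9 and 47.6 CPM in Cre and 60.026, 60.7 and 62.1 CPM in floxed muscle (log2 -0.47, SE 0.0655, adjusted p = 0.00662), and Pigu, a subunit of the GPI transamidase. Pigu had 10.3, 10.4 and 11.4 CPM in Cre and 15.1, 19.1 and 19 CPM in floxed muscle (log2 -0.54, SE 0.0915, adjusted p = 0.0279). Eif6, a factor of ribosome assembly, had 9, 7.49 and 8.1 CPM in Cre and 12.1, 13.7 and 12.6 CPM in floxed muscle (log2 -0.53, SE 0.0968, adjusted p = 0.04). For none of these 5 genes did a Cre library overlap a floxed library at either age, which follows in part from their selection on the same libraries.

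In the knockout libraries, which are labelled as carrying both the transgene and the floxed alleles, these genes took different levels. Old knockout 40, whose Pofut1 goes against its label, is counted apart from the other 5. For Pigu, Eif6 and Gm16439 these 5 lay inside the range of the 6 floxed control libraries and none inside that of the 6 Cre libraries, and for Ahcy and Phf20 this held for 4 of 5. LOC102640133 was at 10.3 to 14.3 CPM in the 5, above the Cre range of 1.71 to 2.69 CPM, with 2 inside the floxed range of 11.9 to 17.7 CPM and 3 under it. For Cd28 and Tspan13 none of the 5 lay in the floxed range and 3 lay in the Cre range. For Maats1, Ankrd36, Mfhas1, Gm16793 and LOC105244148 all 5 lay above the floxed range. Sox12 had none of the 5 in the floxed range and 2 in the Cre range. Of the remaining genes, Uqcc1 had 2 of the 5 in the floxed range and 3 under it, and Kcnab1 had 2 in it and 3 under it. Ctnna3 likewise had 2 in the floxed range and 3 under it, Cda had 1 in it and 4 above it, and Ddias 3 in it and 2 above it. Over all 6 knockout libraries, 5 lay in the Cre range for Kcnab1, 4 for Ddias, 3 for Ctnna3, 3 for Cda and 0 for Uqcc1. For Kcnab1, Ctnna3 and Ddias the Cre and floxed ranges overlapped. Old knockout 40 itself had Pigu, Eif6, Gm16439, Ahcy, Phf20 and LOC102640133 in the floxed range. It differed from the other 5 for Ankrd36 (0 CPM), Mfhas1 (2.86 CPM), Gm16793 (0.118 CPM), LOC105244148 (0.0784 CPM) and Maats1 (0 CPM), which were in the floxed range too. Its Cd28 (0.118 CPM) and Tspan13 (27.1 CPM) were in the Cre range.

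Without a call in the fit of all 18 libraries, 5 genes picked after their values were seen had higher values in Cre muscle at both ages: 2 of immature fibres, 2 of the acetylcholine receptor, and Pkhd1. The list of immature fibres as a whole had 12 of 19 members positive at 17 months and 0 at an unadjusted p under 0.05. Myh3, embryonic myosin heavy chain, had 25.7, 19.3 and 16.5 CPM in Cre and 9.58, 8.12 and 6.9 CPM in floxed muscle at 17 months, and 23, 21 and 22.2 CPM in Cre and 9.998, 4.17 and 3.72 CPM in floxed muscle at 2 months. Tnnt2, the cardiac and embryonic troponin T, had 8.45, 8.77 and 6.79 CPM in Cre and 3.08, 3.64 and 3.61 CPM in floxed muscle at 17 months. Chrna1, the alpha subunit of the muscle acetylcholine receptor, had 16, 15.5 and 20.5 CPM in Cre and 11.1, 10.7 and 11 CPM in floxed muscle. Chrng, its fetal gamma subunit, had 8, 9 and 8 counts in Cre and 1, 0 and 2 counts in floxed muscle at 17 months, and 14, 20 and 10 counts in Cre and 4, 2 and 0 counts in floxed muscle at 2 months. Pkhd1, the fibrocystin of kidney cilia, had 1.1, 0.78 and 0.422 CPM in Cre and 0.195, 0.153 and 0.142 CPM in floxed muscle. For each of these 5 genes the 6 Cre libraries of both ages lay above the 6 floxed ones. Since the genes were picked with these values known, this separation restates the choice and is no support for a difference.

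Whether these genes were called depended on the libraries in the fit. With all 18 libraries the adjusted p over both ages was 0.57 for Myh3, 0.436 for Tnnt2, 0.207 for Chrna1 and 0.57 for Pkhd1. Without the library labelled old knockout 40 it was 0.224 for Myh3, 0.0454 for Tnnt2, 0.0761 for Chrna1 and 0.101 for Pkhd1, so Tnnt2 was then called. With only the 12 control libraries, the fit in which 6 of the 20 calls were lost, all 4 were called. Tnnt2 had a log2 change of 1.501 (SE 0.134, adjusted p = 0.000444), followed by Myh3 (log2 1.605, SE 0.217, adjusted p = 0.019), Chrna1 (log2 0.88, adjusted p = 0.019) and Pkhd1 (log2 2.32, adjusted p = 0.0314). Chrng missed in that fit too (adjusted p = 0.0648). The fit of all 18 libraries takes its estimate of each gene's spread from the knockouts as well, and there Myh3 ran from 5.82 to 232 CPM. Ak7, an adenylate kinase of cilia, and Ehd4, an endocytic ATPase, were 2 further genes called over both ages with only the controls (adjusted p = 0.0367 and 0.04). Myh8, perinatal myosin, had 55.3, 39 and 32.7 CPM in Cre and 33, 25.5 and 31.3 CPM in floxed muscle at 17 months, with overlap. At 2 months it had 35, 42.2 and 68.2 CPM in Cre and 34.6, 31.1 and 29.4 CPM in floxed muscle, without overlap.

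**Figure D4:**
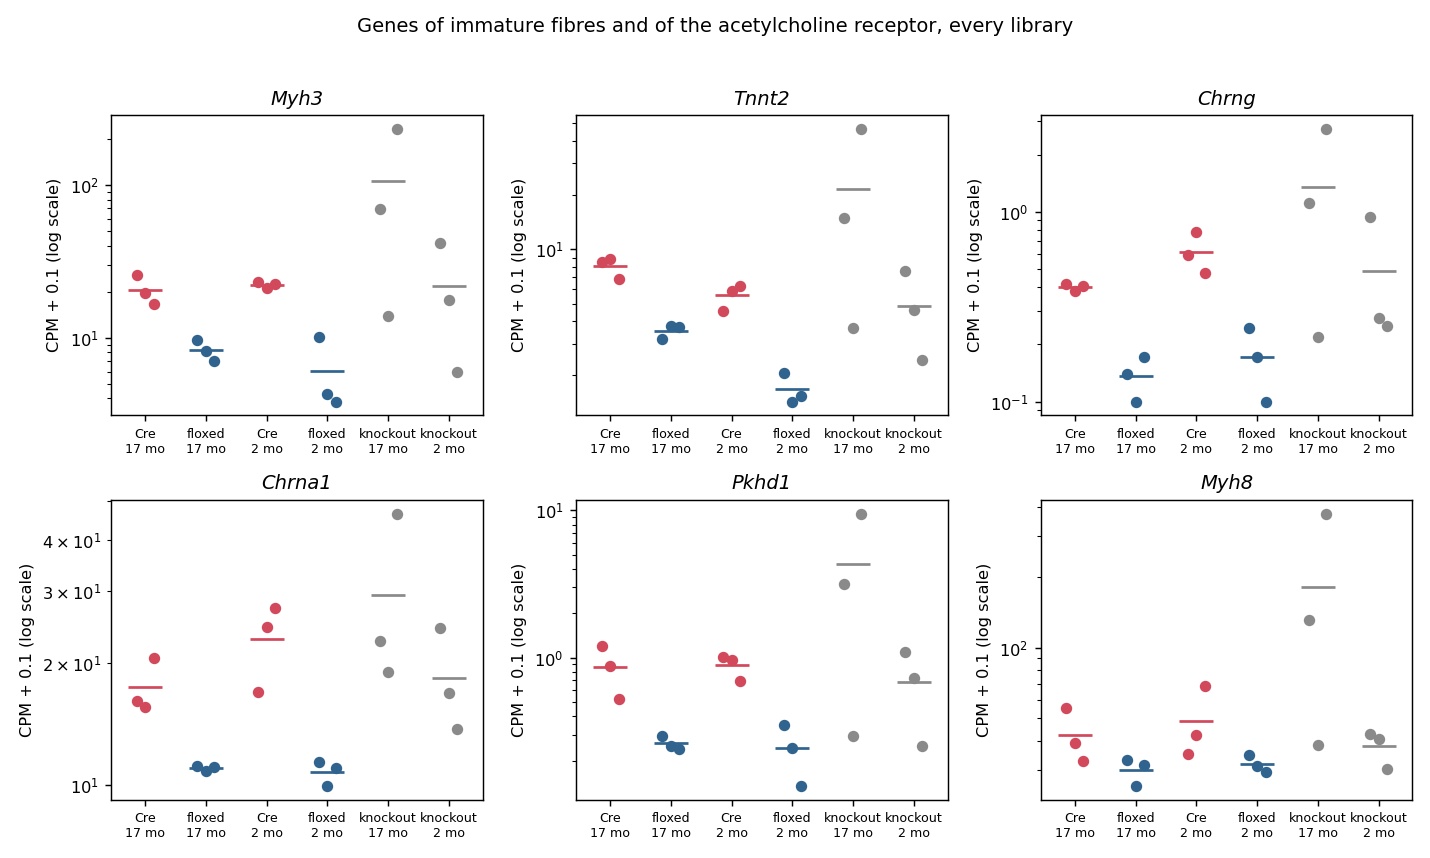
CPM + 0.1 on a log scale for Pkhd1 and for genes of immature fibres and of the acetylcholine receptor, 6 in all. Each library is 1 point, and a bar marks the group mean. For Myh3 the Cre libraries lie at 16.5 to 25.7 CPM and the floxed libraries at 3.72 to 9.998 CPM over both ages, while Myh8 overlaps at 17 months.

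Among the 15224 genes tested, 98 with higher and 133 with lower levels in Cre muscle passed a filter. It asked for groups without overlap at 17 months and an unadjusted p under 0.01. It also asked for a mean of at least 1 CPM in the higher group and a symbol that is no clone name. Genes from the 12 with the largest fold on each side are given here as values, since none but those named above was called. On the side with higher values in Cre muscle were Fam174b, a small membrane protein (3.03 to 6.37 CPM in Cre against 0.613 to 0.991 CPM in floxed muscle; log2 2.26, unadjusted p = 0.000342), Fam184b (0.825 to 2.15 CPM in Cre against 0.142 to 0.506 CPM in floxed muscle; log2 2.15, unadjusted p = 0.000956), Catsperg1, a subunit of the sperm calcium channel (1.09 to 2.26 CPM in Cre against 0.177 to 0.662 CPM in floxed muscle), and Fat2, a giant cadherin (0.593 to 1.61 CPM in Cre against 0.248 to 0.428 CPM in floxed muscle). Ccl2, the chemokine that draws monocytes, had 0.747 to 1.34 CPM in Cre against 0.156 to 0.389 CPM in floxed muscle. Nmrk2, the muscle nicotinamide riboside kinase, had 68.2, 115 and 72.3 CPM in Cre and 25.9, 24.7 and 35.1 CPM in floxed muscle (log2 1.57, unadjusted p = 0.00795). E2f2, a cell cycle transcription factor, had 5.34 to 7.14 CPM in Cre against 2.41 to 3.75 CPM in floxed muscle, and Vstm4 1.28 to 1.96 CPM in Cre against 0.495 to 1.01 CPM in floxed muscle. The interferon genes Mx1 and Irf7 and the gene Mfhas1 were also in this set.

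On the side with lower values in Cre muscle were Mustn1, Csrp3, Fhl1 and Hspb7. Mustn1, a small nuclear protein of growing and mechanically loaded muscle, had 36.9, 37.5 and 64 CPM in Cre and 87.7, 202 and 241 CPM in floxed muscle (log2 -1.94, SE 0.366, adjusted p = 0.145). Its levels were 15.7 to 24 CPM in Cre and 17.7 to 27.6 CPM in floxed muscle at 2 months, so the old Cre libraries lay above the young ones but below each old floxed library. Csrp3, the muscle LIM protein of the Z-disc, had 38.2, 41.8 and 53.1 CPM in Cre and 69, 122 and 178 CPM in floxed muscle (log2 -1.47, unadjusted p = 0.00459). Fhl1, a LIM protein of slow and loaded fibres, had 355, 726 and 785 CPM in Cre and 1169, 1603 and 1226 CPM in floxed muscle (log2 -1.10, unadjusted p = 0.00466). Hspb7, a small heat shock protein of heart and muscle, had 62.4, 65.7 and 49.6 CPM in Cre and 109, 149 and 173 CPM in floxed muscle (log2 -1.28, unadjusted p = 0.00235). At 2 months the changes of these 4 genes were between -0.19 and 0.20, and the difference between the ages passed for none of them (adjusted p of at least 0.764).

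Hal, histidine ammonia-lyase, had the largest negative change of the 12, with 0.236, 0.156 and 0.115 CPM in Cre and 7.55, 5.59 and 8.24 CPM in floxed muscle (log2 -5.37, unadjusted p = 0.00277). It was called when only these 6 libraries were fitted (adjusted p = 0.000268). At 2 months, however, Hal was high in 2 of 3 Cre libraries and in 1 of 3 floxed ones, with 0.105, 11.5 and 6.98 CPM in Cre 61, 93 and 94 and 6.7, 0.072 and 0.0688 CPM in floxed 32, 57 and 92. It was at 6.19 to 27.1 CPM in the knockouts, so in the 18 libraries it was either at most 0.236 CPM or at least 5.59 CPM, and each of these states was found in both control genotypes. Btla, an inhibitory receptor of lymphocytes, had 0.864, 1.37 and 1.19 CPM in Cre and 4.24, 5.97 and 5.55 CPM in floxed muscle, and the knockouts ranged over 0.567 to 9.59 CPM. Rspo3, a Wnt agonist, had 0.499 to 0.511 CPM in Cre against 1.03 to 1.79 CPM in floxed muscle, Serpinb1c, a serine protease inhibitor, had 0.844 to 1.19 CPM in Cre against 1.44 to 4.17 CPM in floxed muscle, and Sim1, a transcription factor, had 0.786 to 1.11 CPM in Cre against 2.22 to 3.27 CPM in floxed muscle. The transfer RNA gene n-Te15 (0.157 to 0.23 CPM in Cre against 0.467 to 2.18 CPM in floxed muscle) and the ribosomal Rn18s-rs5 (178 to 301 CPM in Cre against 616 to 2871 CPM in floxed muscle) were highest in floxed 46. Kcnab1, given above, completes this set.

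Gene lists were described by their counts and medians beside those of all genes, whose median log2 change was 0.02 with 52.5% of changes positive. Of all genes, 4.23% of genes were higher and 5.99% lower in Cre muscle at an unadjusted p under 0.05. In each of the 29 lists with 3 or more measured members, 0 members were called at 17 months (edgeR), and the counts at an unadjusted p under 0.05 are given where they are above 0.

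The list with the most one-sided values was the interferon response: 26 of 26 members had a positive change (median 0.68), 13 with an unadjusted p under 0.05 and none called (smallest adjusted p = 0.321). Usp18, which removes ISG15 from proteins, had 2.99, 3.03 and 3.03 CPM in Cre and 1.25, 1.23 and 1.98 CPM in floxed muscle (log2 1.02, unadjusted p = 0.000498). Irf7, the regulator that amplifies the interferon response, had 2.08, 4.77 and 2.53 CPM in Cre and 0.545, 0.919 and 1.66 CPM in floxed muscle (log2 1.58, unadjusted p = 0.000995). Mx1, an antiviral GTPase, had 0.786, 2.56 and 0.806 CPM in Cre and 0.311, 0.306 and 0.531 CPM in floxed muscle, and Xaf1, an interferon-induced cell death factor, 3.22, 4.46 and 2.76 CPM in Cre and 2.06, 2.37 and 1.63 CPM in floxed muscle. Rsad2, or viperin, had 5.54, 6.46 and 27.4 CPM in Cre and 5.29, 4.17 and 5.02 CPM in floxed muscle, with Cre 99 far above the rest. The library Cre 35 was high across the list: the median of its members, centred on each gene's mean over the 6 libraries, was 0.77 on the log2 scale, against -0.09 in Cre 34, 0.12 in Cre 99 and -0.34, -0.14 and -0.21 in floxed 5, 46 and 48. Without Cre 35 the median of the list was 0.33, with 17 of 26 positive and 6 at an unadjusted p under 0.05. At 2 months the median was 0.02, with 16 of 26 positive and 1 higher at an unadjusted p under 0.05, Mx2. The difference between the ages had an unadjusted p under 0.05 for 6 members and was called for none. Macrophage genes were mostly positive too (18 of 20 members positive, median 0.42), with 1 of 20 higher at an unadjusted p under 0.05, and their part in the interferon values was not tested.

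The promoters of interferon-stimulated genes carry the interferon-stimulated response element, which is bound by the STAT and IRF factors that interferon activates. Of the 26 measured members, 17 had a promoter window in RefSeq (GRCm38.p6; 250 bases before to 50 after the gene's start). A core of this element, 2 copies of TTTC with any 2 bases between them, searched on both strands, occurred in a window of 11 of these 17 genes, and in 1131 of all 32851 windows (3.44%). A longer run of 3 such copies, each 2 bases from the next and so containing the core, occurred for 4 of the 17 genes and in 38 of all windows (0.116%). It was absent from the windows of Irf7 and Xaf1, which hold no match to the core either. The windows of Isg15, a ubiquitin-like modifier, and Bst2, the virus-tethering protein tetherin, are printed because they hold the longer run and had the smallest p among the 4 (Isg15 at 0.314 to 1.07 CPM in Cre against 0.156 to 0.283 CPM in floxed muscle; Bst2 at 2.11 to 5.05 CPM in Cre against 1.95 to 2.34 CPM in floxed muscle), a choice made after the values were seen. Capitals mark each match to the core on either strand.
Isg15, chr4:156200769-156201068, minus strand: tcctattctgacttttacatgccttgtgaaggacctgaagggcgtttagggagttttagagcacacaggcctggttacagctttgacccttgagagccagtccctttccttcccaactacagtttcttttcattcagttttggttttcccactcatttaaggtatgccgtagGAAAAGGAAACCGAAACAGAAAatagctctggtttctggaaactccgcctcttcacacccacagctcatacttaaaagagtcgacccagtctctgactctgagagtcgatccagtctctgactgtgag
Bst2, chr8:71537423-71537722, minus strand: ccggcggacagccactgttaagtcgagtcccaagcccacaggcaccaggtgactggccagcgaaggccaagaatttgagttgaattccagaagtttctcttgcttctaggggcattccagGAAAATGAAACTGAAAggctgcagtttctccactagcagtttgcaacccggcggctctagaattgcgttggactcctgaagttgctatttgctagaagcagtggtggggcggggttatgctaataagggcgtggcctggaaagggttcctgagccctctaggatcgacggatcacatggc

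Notch genes showed no call. Of 22 members 18 had a positive change at 17 months (median 0.23), 4 of them with an unadjusted p under 0.05, and at 2 months 6 of 22 were positive (median -0.06). The centred medians of the list at 17 months were 0.24, 0.07 and 0.02 in Cre 34, 35 and 99. In floxed 5, 46 and 48 they were 0.14, -0.26 and -0.12, so the libraries were interleaved. The receptors overlapped between the groups, with Notch1 at 10.7, 8.14 and 7.75 CPM in Cre and 9.69, 6.2 and 6.47 CPM in floxed muscle and Notch3 at 4.8 to 7.74 CPM in Cre against 3.41 to 7.32 CPM in floxed muscle. Of the target genes, Hes1 had 12.6, 15.2 and 11.4 CPM in Cre and 9.85, 6.85 and 8.21 CPM in floxed muscle (log2 0.65, SE 0.258, adjusted p = 0.452) and Heyl had 1.07 to 2.4 CPM in Cre against 0.919 to 1.84 CPM in floxed muscle. Numb, an inhibitor of Notch, had 23.5, 24.3 and 26 CPM in Cre and 19.7, 16.5 and 16.8 CPM in floxed muscle (log2 0.48, SE 0.112, adjusted p = 0.324). Maml3, a coactivator, had 3.26 to 4.44 CPM in Cre against 2.34 to 3.25 CPM in floxed muscle. Enzymes of fucose supply and transfer did not stand apart (5 of 14 members positive, median -0.10), with 2 lower at an unadjusted p under 0.05: Fut8, the core fucosyltransferase (18.3 to 22.6 CPM in Cre against 23.8 to 27 CPM in floxed muscle), and Fpgt, of the fucose salvage pathway (6.21 to 9.13 CPM in Cre against 8.99 to 12 CPM in floxed muscle). Satellite cell genes were close to all genes (12 of 19 members positive, median 0.13, 1 higher at an unadjusted p under 0.05). Pax7, their defining factor, had 0.46 to 0.825 CPM in Cre against 0.428 to 0.92 CPM in floxed muscle.

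The list of adult fibre types had no call. Of its 24 members, slow and fast, 7 had a positive change (median -0.27), and 3 were lower at an unadjusted p under 0.05. All 9 slow genes of the list, a subset drawn after the values were seen, had a negative change, and these include the 3. Of the other 15 members 8 were negative and 7 positive (median -0.04), with 0 at an unadjusted p under 0.05. Myh7, slow myosin, had 35.4, 198 and 6.29 CPM in Cre 34, 35 and 99 and 934, 439.8 and 129 CPM in floxed 5, 46 and 48 (log2 -2.65, unadjusted p = 0.116), and Tnnc1, slow troponin C, 4.44, 20.9 and 1.57 CPM in Cre and 73, 69 and 18.1 CPM in floxed muscle. Cre 35 lay above floxed 48 for both, so the groups overlapped. Tpm3, slow tropomyosin, had 37.1 to 121 CPM in Cre against 95.8 to 336 CPM in floxed muscle, Atp2a2, the slow calcium pump, 45.3 to 113 CPM in Cre against 99.1 to 301 CPM in floxed muscle, and Myoz2, a Z-disc protein of slow fibres, 16.7 to 46 CPM in Cre against 53.9 to 94.4 CPM in floxed muscle. The fast IIB myosin Myh4 had 139637, 91083 and 103200.0 CPM in Cre and 104802, 54744 and 85935 CPM in floxed muscle. Myh7 ranged from 5.12 to 336 CPM in Cre and 6.33 to 556 CPM in floxed muscle at 2 months.

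Nuclear genes of oxidative phosphorylation had small negative changes in 38 of 45 (median -0.14), with 3 lower at an unadjusted p under 0.05. The largest of these was Ndufb5, a complex I subunit, with 67.2, 88.1 and 67.2 CPM in Cre and 77.7, 127 and 111 CPM in floxed muscle. At 2 months 44 of 45 had a positive change (median 0.20), and the difference between the ages had an unadjusted p under 0.05 for 9 and was called for none. The libraries of the 2 genotypes were interleaved, since its centred median was -0.18 in Cre 34, 0.13 in Cre 35 and -0.17 in Cre 99, against -0.13 in floxed 5, 0.21 in floxed 46 and 0.10 in floxed 48. Glycolysis genes were more often positive (14 of 21 members positive, median 0.11, 2 higher at an unadjusted p under 0.05), and pyruvate kinase, Pkm, had 2855, 2574 and 2464 CPM in Cre and 2206, 1991 and 2289 CPM in floxed muscle.

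Genes that respond to loss of the nerve and genes of the synapse were mostly positive in Cre muscle, with no call. In the nerve loss list 14 of 20 were positive (median 0.20), with 3 higher (Gadd45a, Chrna1 and Chrng) and 1 lower (Dach2, 3.1 to 7.18 CPM in Cre against 9.23 to 16.4 CPM in floxed muscle) at an unadjusted p under 0.05. Gadd45a, a growth arrest and DNA damage gene, had 22.5, 20.7 and 38.2 CPM in Cre and 19.4, 19.7 and 14.2 CPM in floxed muscle. In the synapse list 15 of 19 were positive (median 0.22), with 3 higher: Chrna1, Etv4, an ETS factor (0.686 to 0.959 CPM in Cre against 0.389 to 0.672 CPM in floxed muscle), and Ache, acetylcholinesterase (17.9, 12.7 and 14.2 CPM in Cre and 11.3, 5.82 and 8.21 CPM in floxed muscle). The centred medians of the synapse list were 0.17, 0.0094 and 0.12 in Cre 34, 35 and 99. In floxed 5, 46 and 48 they were 0.13, -0.26 and -0.22, so the libraries were interleaved. The list of immature fibres had 12 of 19 positive (median 0.24), with none at an unadjusted p under 0.05 either way.

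Cre recombinase can cut DNA at sites that resemble loxP, so damage genes were listed. The p53 and DNA damage list had a median near that of all genes at 17 months (16 of 28 members positive, median 0.05), with 2 higher (Gadd45a and Gadd45b, at 12 to 14 CPM in Cre against 6.93 to 11.1 CPM in floxed muscle) and 1 lower (Rrm2b, a p53-induced reductase subunit, at 26.4 to 51.3 CPM in Cre against 56.3 to 66.2 CPM in floxed muscle) at an unadjusted p under 0.05. At 2 months 21 of 28 were positive (median 0.13), with 4 higher and 0 lower at that p. The difference between the ages had an unadjusted p under 0.05 for 5 members and was called for none. Stress chaperones also had a median near that of all genes at 17 months (9 of 19 members positive, median -0.02), with 3 lower, among them Hspb7 and Cryab, alpha B crystallin (178 to 214 CPM in Cre against 221 to 332 CPM in floxed muscle). Atrophy genes had 10 of 21 members positive, median 0.00, with 2 lower at that p. One of them, Mstn, myostatin, the brake on muscle growth, had 75 to 95.5 CPM in Cre against 95 to 132 CPM in floxed muscle. The dystrophin complex and laminins had 16 of 25 members positive, median 0.07. Dmd, dystrophin, had 374, 948 and 938 CPM in Cre and 1410.2, 1898 and 1263 CPM in floxed muscle (log2 -1.02, unadjusted p = 0.00567), with no overlap and Cre 34 lowest. Itgb1, the beta 1 integrin, was the other member lower at an unadjusted p under 0.05 (231 to 257 CPM in Cre against 272 to 325 CPM in floxed muscle). Cell cycle genes had 23 of 29 members positive, median 0.27, with 1 higher at an unadjusted p under 0.05, the replication helicase subunit Mcm3 (3.53 to 4.56 CPM in Cre against 2.87 to 3.31 CPM in floxed muscle), and clock genes 8 of 19 members positive, median -0.04, with 1 lower. Matrix genes had 29 of 42 members positive, median 0.16, with Mmp14, a membrane metalloprotease (3.9 to 6.01 CPM in Cre against 2.45 to 3.31 CPM in floxed muscle), and Fbln2, a fibulin (35.5 to 53.8 CPM in Cre against 28.7 to 41 CPM in floxed muscle), higher and Ogn, osteoglycin (45.7 to 74.2 CPM in Cre against 86.4 to 119 CPM in floxed muscle), lower at an unadjusted p under 0.05.

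Markers of the other cells of the tissue mostly had small positive changes in Cre muscle, with no call at 17 months. Endothelial genes had 15 of 16 members positive, median 0.37, with 1 higher at an unadjusted p under 0.05, Eng, or endoglin (8.36 to 11.3 CPM in Cre against 5.55 to 8.6 CPM in floxed muscle). Pecam1 had 38.2 to 53.5 CPM in Cre against 28 to 45.3 CPM in floxed muscle, with overlap. The centred medians of the endothelial list were 0.41 in Cre 34, 0.26 in Cre 35 and -0.09 in Cre 99. In floxed 5, 46 and 48 they were 0.15, -0.46 and -0.24, so the libraries were interleaved. Smooth muscle and pericyte genes had 13 of 15 members positive, median 0.27, with 1 higher at that p, the smooth muscle myosin Myh11 at 33.7 to 52.2 CPM in Cre against 21.6 to 38.2 CPM in floxed muscle. The summed levels of some lists did not overlap between the groups. Those of the interferon list were higher in Cre muscle (lowest Cre 122.99, highest floxed 122.39 CPM). Those of the clock list (highest Cre 1092, lowest floxed 1145 CPM) and the dystrophin list (highest Cre 2885, lowest floxed 3288 CPM) were lower. Nor did macrophage genes overlap in their sum, with 375.6, 378.1 and 363.1 CPM in Cre muscle and 283.3, 262.3 and 321.1 CPM in floxed muscle. Lyz2, their lysozyme, had 98.5, 97 and 109 CPM in Cre and 59.4, 58.5 and 71.7 CPM in floxed muscle, and Lyz1, its close copy, 2.72 to 6.95 CPM in Cre against 1.38 to 2.61 CPM in floxed muscle, and reads of the 2 may be split between copies. Fibroblast genes had 13 of 19 members positive, median 0.18 (Pdgfra at 62.3 to 68.2 CPM in Cre against 43.3 to 63.7 CPM in floxed muscle), adipocyte genes 11 of 22 members positive, median 0.00, Schwann cell genes 9 of 13 members positive, median 0.24, tendon genes 3 of 12 members positive, median -0.14, and neutrophil and mast cell genes 4 of 7 members positive, median 0.06. The few lymphocyte genes had 1 of 6 members positive, median -1.54, with 1 lower at that p, Cd28. Their summed levels overlapped, with 144.4, 77.6 and 26.8 CPM in Cre and 8.41, 32.3 and 77 CPM in floxed muscle. Red blood cell genes had 8 of 9 members positive, median 1.42. Cre 99 was far above the other libraries: Hba-a1, alpha globin, had 181, 151 and 2170.2 CPM in Cre 34, 35 and 99 and 227, 149 and 203 CPM in floxed muscle, and Alas2, a heme enzyme, 11.5, 9.8 and 86.6 CPM in Cre and 12.8 to 14.3 CPM in floxed muscle. The lists of muscle identity (5 of 12 members positive, median -0.04, 1 lower, Dmd, at an unadjusted p under 0.05) and of sex-linked genes (1 of 6 members positive, median -0.93) complete the set. The part of these other cells in the results above was not tested.

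**Figure D5:**
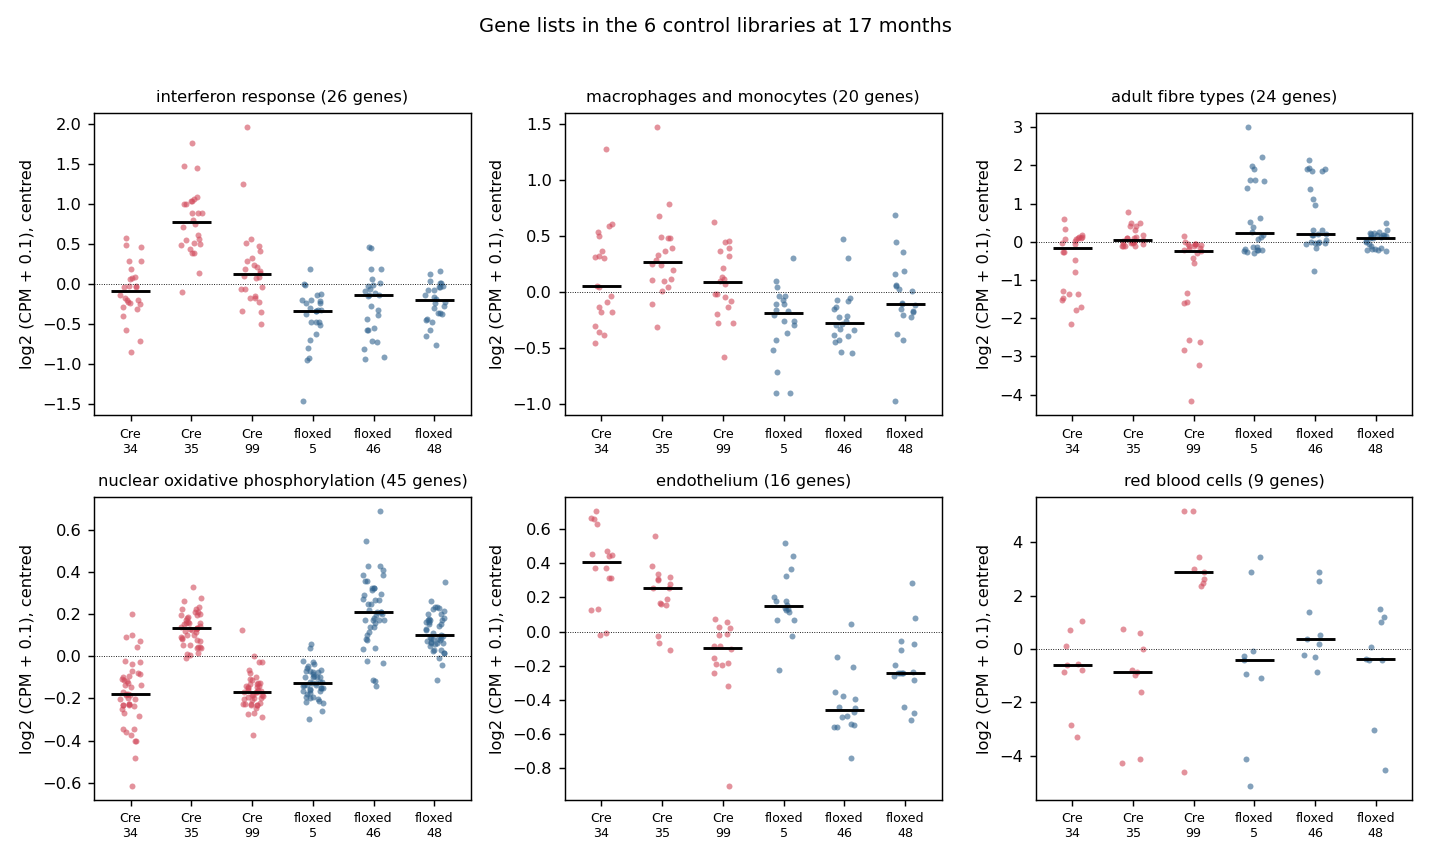
Log2 (CPM + 0.1) of each member of 6 gene lists in the 6 libraries, centred on the member's mean over them, with 1 point for each gene and a bar for the library's median. The interferon median of 0.77 in Cre 35 and the red blood cell median of 2.89 in Cre 99 stand above those of the other libraries, and macrophage medians are 0.05 to 0.26 in Cre against -0.27 to -0.11 in floxed muscle.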

How the data were processed

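RNA of quadriceps muscle was depleted of ribosomal RNA and made into ScriptSeq v2 libraries, per the labels' protocols. The authors deposited whole-number read counts per gene, and STAR, HTSeq, DESeq2 and the builds GRCm38.p4 and GRCh38.p5 stand in the submitters' processing notes. The deposited counts hold 15224 genes; the smallest total of a gene over the 18 libraries was 67, so the table had been filtered before.

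Group means of the 6 groups were fitted to all 18 libraries with edgeR 4.0.16 (TMM factors, quasi-likelihood F test, R 4.3.3, 12 residual degrees of freedom), with Benjamini-Hochberg adjustment over all genes and a threshold of 0.05. filterByExpr (minimum count 10) removed no gene. The standard error is the log2 change over the root of F. DESeq2 1.42.0, RLE factors, a mean of at least 1 CPM, no filter, fewer libraries, Xist as a covariate and leaving out each replicate were the alternatives. The fit was tested on simulated data. By Entrez ID 14726 genes were placed on RefSeq GRCm38.p6.

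The text names called genes, up to 12 uncalled genes per direction (unadjusted p under 0.01, at least 1 CPM, no overlap), up to 4 members of a list by p, and fixed genes; Hspb6, Ehd4 and Ak7 were added after their values were seen. Members and lists were chosen with earlier results of these data known. Nothing in the labels says more of the replicates than their numbers, so p-values measure the spread between these libraries. A few of the genes that this rule selects are not reported here.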

Additional observations from a re-analysis of the deposited data

How the results depend on the processing

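LOC102640133 was called at 17 months in each alternative tried. Against 2 genes called at 17 months, a mean of at least 1 CPM gave 1, Xist as a covariate 1, only the 6 libraries of the contrast 4 and DESeq2 24 (10 higher in Cre muscle, with both genes of the main count). Leaving out 1 library gave 1 to 7, the highest without floxed 5. At 2 months (2 genes) the same settings gave 1, 1, 1 and 19, and leaving out 1 library gave 1 to 2. Over both ages (20 genes) a mean of at least 1 CPM gave 10, DESeq2 49, with all 20 among them, and leaving out 1 library 9 to 19. For the difference between ages DESeq2 called 1 gene against 0. With Cre 34 and floxed 46 both left out, chosen after seeing the data, 1 gene was called at 17 months and 10 over both ages. With old knockout 40 left out, also chosen after seeing the data, the counts were 1 at 17 months, 3 at 2 months and 28 over both ages. With only the 12 controls they were 2, 3 and 20, with 14 of the 20 shared. Leaving out both Cre 34 and floxed 46 turned the log2 change of Notch1 to -0.0224, Notch3 to -0.26 and Heyl to -0.15. It also turned Pax7 to -0.11 and Xist to 0.90, and the covariate turned Xist to 0.0173. Leaving out 1 library gave ranges across 0 for Acta1 (-0.12 to 0.0019), Nnt (-0.30 to 0.44), Notch3 (-0.035 to 0.50), Pax7 (-0.19 to 0.35), Xist (-0.75 to 0.43), Ddx3y (-6.16 to 5.46), Hba-a1 (-0.22 to 2.59), Alas2 (-0.33 to 1.86) and Mx2 (-0.23 to 0.19). The cause was not tested. Genes under 30 counts a library are limited by depth. No paired analysis was possible because each replicate number belongs to 1 group only.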
